A study of Bos taurus with 12 samples.

Results

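The precursor of miR-1248 has 2 copies in the cattle genome, bta-miR-1248-1 (miRBase identifier MI0010477) and bta-miR-1248-2 (MI0010483). They were chosen by these identifiers and are 2 of the 640 miRBase features listed, and of 2712 small RNA features in all. Of the 2712, 1398 had a deposited value of 0 in every library and 1314 varied. The RNA came from longissimus muscle, the long back muscle whose marbling sets beef quality. The tissue was biopsied from 4 Angus-cross yearling steers, sired by 1 bull, at 3 times of a feeding period, d 0, d 92 and d 124, where d 0 is the time before the step-up to a diet based on rolled corn. This gave 12 libraries, 4 per time, and each steer, numbered 1 to 4 by its replicate number, was sampled at every time. The steers of the study with intramuscular fat nearest the mean at the later times were the ones sequenced. The biopsies of d 92 came from the other side of the animal than those of d 0, and those of d 124 from another rib, so time and biopsy site cannot be told apart.

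A microRNA is cut from a hairpin precursor, and bases 2 to 8 of the mature strand, the seed, pair with target mRNAs and lower their translation or stability. In humans, miR-1248 lies in an intron of EIF4A2, which encodes an RNA helicase of translation initiation, and overlaps a small nucleolar RNA (snoRNA), of the class that guides chemical modification of ribosomal RNA. Fragments of snoRNAs are common in small RNA libraries. When precursors of a microRNA are copied, short reads that match more than 1 copy must be divided or repeated between the copies by the counting software. The authors aligned to bosTau4. In RefSeq's annotation of a later build, ARS-UCD2.0, the copies sit in unlike places. The gene of miR-1248-1 lies inside EIF4A2, as in humans, together with 3 snoRNA genes. On one side the nearest protein-coding genes are RFC4, a subunit of the clamp loader of DNA replication, and then ADIPOQ, the gene of the fat cell hormone adiponectin, and on the other side KNG1, which encodes the kinin precursor kininogen. The gene of miR-1248-2 lies inside the span of MYO5A, an unconventional myosin that carries organelles, next to MYO5C, and there is no snoRNA gene in that span.

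Quantile normalization sets the libraries to a common scale, so their likeness in scale is no check of quality. Between 893 and 1003 features per library were above the floor. Of 11 microRNAs that mark muscle, blood or liver, 4 are paired with an identifier in the sources used here. The marker of slow muscle fibres, bta-miR-208b, had a normalized level (log2) of 9.588 to 11.1 at d 0. It ran from 8.68 to 10.5 at d 92 and from 9.11 to 9.559 at d 124, so every d 124 library lay below those of d 0. The blood cell markers bta-miR-144 and bta-miR-142 had a summed level (log2) that ran from 10.9 to 13.6 over the d 0 libraries, from 12.7 to 15.1 over those of d 92 and from 12.4 to 13.9 over those of d 124. The level of bta-miR-122, known from liver, ran from 8.01 to 10.2 at d 0, from 9.35 to 13.4 at d 92 and from 8.25 to 10.3 at d 124. These 4 markers were therefore not at 0 in any library, and their part in the values of miR-1248 was not tested. In a bulk biopsy, fewer cells of a type and less RNA per cell cannot be told apart.

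Both copies were above the floor in 12 of 12 libraries, at moderate levels. The normalized level (log2) of miR-1248-1 at d 0 was 6.53, 5.73, 5.54 and 5.52 in steers 1, 2, 3 and 4. At d 92 it was 6.47, 5.65, 5.65 and 5.93 in the same order, and at d 124 it was 6.30, 5.98, 6.27 and 5.68. Steer 1 had the highest level of miR-1248-1 at each time, and the ranges of the 3 times overlapped. The mean level of miR-1248-1 ± SD over 4 libraries was 5.83 ± 0.48 at d 0, 5.92 ± 0.39 at d 92 and 6.06 ± 0.29 at d 124.

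The normalized level (log2) of miR-1248-2 at d 0 was 8.22, 7.57, 7.52 and 7.08 in steers 1, 2, 3 and 4. At d 92 it was 7.86, 7.31, 7.48 and 7.41, and at d 124 it was 7.84, 8.30, 8.38 and 8.72. Steers 2, 3 and 4 had their highest level of miR-1248-2 at d 124, while steer 1 had its highest at d 0. The d 124 library of steer 1 lay just below the d 92 library of that steer, so the ranges of d 92 and d 124 met there and did not separate. The mean level of miR-1248-2 ± SD over 4 libraries was 7.60 ± 0.47 at d 0, 7.52 ± 0.24 at d 92 and 8.31 ± 0.36 at d 124.

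**Figure D1:**
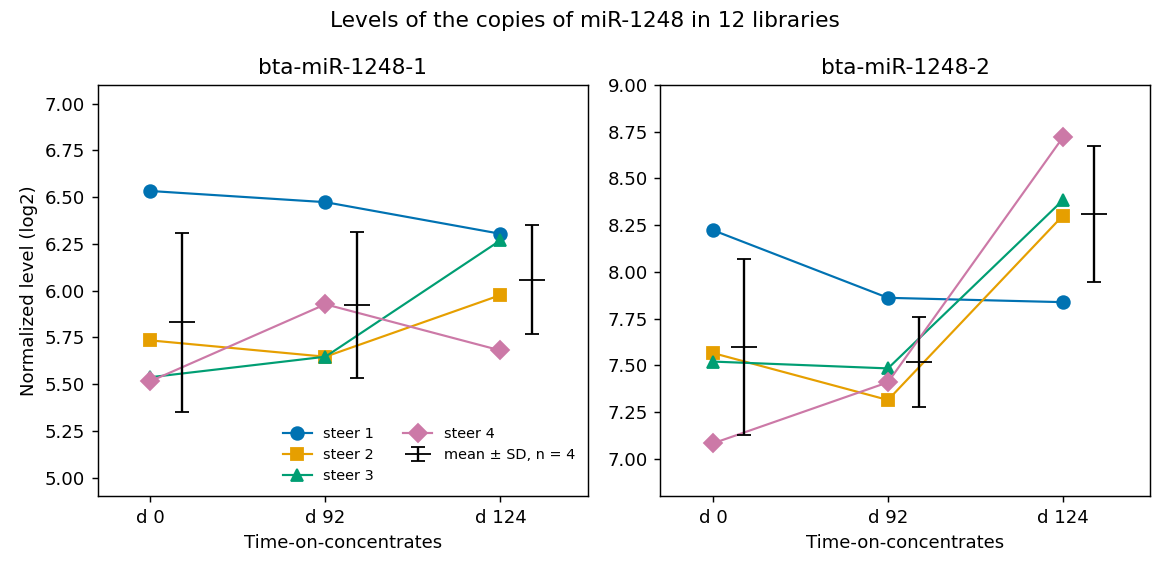
Normalized level (log2) of bta-miR-1248-1 (left) and bta-miR-1248-2 (right) against time-on-concentrates, with 1 symbol per library, lines joining the libraries of a steer, and black bars for the mean ± SD of 4 libraries. The axes span the same range from different starting points, and miR-1248-2 is highest at d 124 in steers 2, 3 and 4, while steer 1 leads miR-1248-1 at every time.

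The second copy had the higher level in every library. On the linear scale of the normalized values, miR-1248-1 ranged from 45.7 to 92.6 (median 57.0) and miR-1248-2 from 136 to 422 (median 209) over the 12 libraries. The RefSeq entries of both precursors have the same length. The comparison of their levels also rests on the recovered medians and on how reads were assigned to the copies. By level, miR-1248-2 held a place between 146 and 193 among the miRBase features of its library, and miR-1248-1 a place between 187 and 229, of between 329 and 353 features above the floor. The share of miR-1248-2 in the sum of both copies was between 74.8% and 79.8% at d 0, between 72.4% and 78.1% at d 92 and between 74.3% and 89.2% at d 124. At d 124 that share was 74.3% in steer 1, 83.4% in steer 2, 81.3% in steer 3 and 89.2% in steer 4. In 3 of 4 steers it was thus above every value of d 0 and d 92. The sources used here do not say how the counting treated reads that match both copies.

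Over 12 libraries the standard deviation of the level (log2) was 0.37 for miR-1248-1 and 0.50 for miR-1248-2. Of 44 tested miRBase features within 1 (log2) of the median level of miR-1248-1, 5 had a smaller standard deviation, and the median of the 44 was 0.50. Of 45 such features around miR-1248-2, 25 had a smaller one. The spread also fell on different parts of the design. For miR-1248-1 the steer took 67.8% of the sum of squares and the time 6.96%. For miR-1248-2 the steer took 4.27% and the time 55.3%. Over the tested miRBase features the median share was 31.4% for the steer and 13.3% for the time, each median taken by itself. The shares are given as a description of 12 libraries, with no test.

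At d 92 against d 0, neither copy passed a test of change over time. The log2 fold change of miR-1248-1 was 0.094, with a standard error of 0.31, a 95% interval of -0.57 to 0.75 and an adjusted p of 0.983 in limma, and 2 of 4 steers had the higher value at d 92. That of miR-1248-2 was -0.081, with a standard error of 0.30, a 95% interval of -0.72 to 0.56 and again an adjusted p of 0.983, and 3 of 4 steers had the lower value at d 92. The two-sided exact permutation test over 70 regroupings of 4 against 4 libraries gave p = 0.657 for miR-1248-1 and p = 0.771 for miR-1248-2, each 1.00 once adjusted over the 368 miRBase features tested. With so few regroupings, an adjusted value under 0.05 would need most of the 368 features at the smallest p, so the adjusted values carry little information. In this comparison limma called 0 of 368 features at an adjusted p under 0.05 (0.0%), and 19 of 368 (5.16%) had an unadjusted p under 0.05 with a change of 1.3-fold or more, the limits that the study used, 5 as higher (1.36%) and 14 as lower (3.8%). Neither copy was among the 19. Both changes turned sign when 1 library was left out, miR-1248-1 without replicate 3 or 4 of d 0 or replicate 1 of d 92 and miR-1248-2 without d 0 replicate 1, where it was 0.13.

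At d 124 against d 0, miR-1248-2 was 1.64-fold higher, and the difference passed the unadjusted limits only. Its log2 fold change was 0.71 (standard error 0.30, 95% interval 0.075 to 1.35, unadjusted p = 0.0312 and adjusted p = 0.496 from limma). By steer, the level of miR-1248-2 changed by -0.39, 0.74, 0.86 and 1.64 (log2) in steers 1 to 4, so 3 of 4 were higher and steer 1 was lower. The two-sided exact permutation test gave p = 0.0571, where 0.0286 is the smallest that 4 against 4 libraries allow. After adjustment over 368 features it was 0.809, but a value under 0.05 would need most features at 0.0286. The log2 fold change was in place 16 of 368, from the highest down, and the median of all tested features was -0.07. Of the 368 features, 33 (8.97%) passed the unadjusted limits, 28 as lower (7.61%) and 5 as higher (1.36%), with miR-1248-2 among the 5, and limma called 0 (0.0%) at an adjusted p under 0.05. The unadjusted p of miR-1248-2 was 0.0653 without d 0 replicate 3, 0.119 without d 0 replicate 4 and 0.0661 without d 124 replicate 4, and 0.0793 when limma was given only the libraries of these 2 times.

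The first copy passed no test at d 124 against d 0. The log2 fold change of miR-1248-1 was 0.23 (standard error 0.31, 95% interval -0.43 to 0.89, unadjusted p = 0.471 and adjusted p = 0.899 from limma), which is 1.17-fold, in place 73 of 368. By steer, its level changed by -0.23, 0.24, 0.73 and 0.16 (log2) in steers 1 to 4. The steer that fell in miR-1248-2, steer 1, also fell in miR-1248-1, but the steer with the largest rise in miR-1248-2, steer 4, was not the one with the largest rise in miR-1248-1, steer 3. The exact permutation test gave p = 0.457 for miR-1248-1.

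At d 124 against d 92, which shares the d 124 libraries with the comparison above, miR-1248-2 was 1.73-fold higher. Its log2 fold change was 0.79 (standard error 0.30, 95% interval 0.16 to 1.43, unadjusted p = 0.0185 and adjusted p = 0.974 from limma; exact permutation p = 0.0571). By steer it changed by -0.02, 0.99, 0.90 and 1.31 (log2). Here 5 of 368 features (1.36%) passed the unadjusted limits, 3 as lower (0.815%) and 2 as higher (0.543%), with miR-1248-2 among the 2, in place 8 by log2 fold change, and 0 (0.0%) passed the adjusted p. Without d 92 replicate 2 or replicate 4 the unadjusted p was 0.0532 or 0.0539. The log2 fold change of miR-1248-1 was 0.13, with a standard error of 0.31, a 95% interval of -0.53 to 0.79 and an adjusted p of 0.974 in limma. Over the 3 times together, the adjusted p from limma was 0.807 for miR-1248-2 and 0.979 for miR-1248-1.

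Whether the copies changed by different amounts was tested on the difference between them within each library. The level (log2) of miR-1248-2 minus that of miR-1248-1 was 1.69, 1.83, 1.98 and 1.57 in steers 1 to 4 at d 0, and 1.39, 1.67, 1.84 and 1.48 at d 92. At d 124 it was 1.53, 2.33, 2.12 and 3.04. From d 0 to d 92 the difference narrowed in 4 of 4 steers, by 0.17 on average, and the exact permutation test over 70 regroupings gave p = 0.229. From d 92 to d 124 it widened in 4 of 4 steers, by 0.66 on average (exact permutation p = 0.0857), and from d 0 to d 124 it widened in 3 of 4, by 0.49 (exact permutation p = 0.200). These tests treated the libraries as independent, although the same 4 steers were sampled at each time. With the libraries paired by steer, the exact sign-change p was 0.125 from d 0 to d 92 and from d 92 to d 124. From d 0 to d 124 it was 0.375. The smallest p that 4 pairs allow is 0.125, so the paired test could not decide. A change of the copies by different amounts was therefore not shown at any time, and neither was its absence. The d 124 library of steer 4 had the widest difference of all, an 8.23-fold excess of miR-1248-2, against 2.62-fold to 5.01-fold in the other 11 libraries. Without that library the change of the difference was 0.22 against d 0 and 0.40 against d 92. Without d 124 replicate 1 it was 0.73 against d 0 and 0.90 against d 92, and the exact permutation p was then 0.0286 for both, the smallest that 3 against 4 libraries allow here.

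The other microRNA whose copies are named in the study's tables, miR-196a, is set beside miR-1248 as a description only. Its precursors lie in HOX gene clusters, which set position along the body axis. The level of miR-196a-2 minus that of miR-196a-1 was between 0.61 and 1.00 (log2) in the 12 libraries, with a standard deviation of 0.14, while each copy alone had one of 1.02 or 0.95. For miR-1248 the standard deviation of the difference was 0.46, between those of its copies, 0.37 and 0.50. The copies of miR-196a had a Pearson r of 0.993 over 12 libraries, against 0.48 for those of miR-1248. The pairs are not like for like. Median levels (log2) were 8.65 and 9.46 for miR-196a and 5.83 and 7.70 for miR-1248, and each miR-196a copy varied more. How reads that match both copies of a pair were counted is also not known, so r may reflect the counting.

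**Figure D2:**
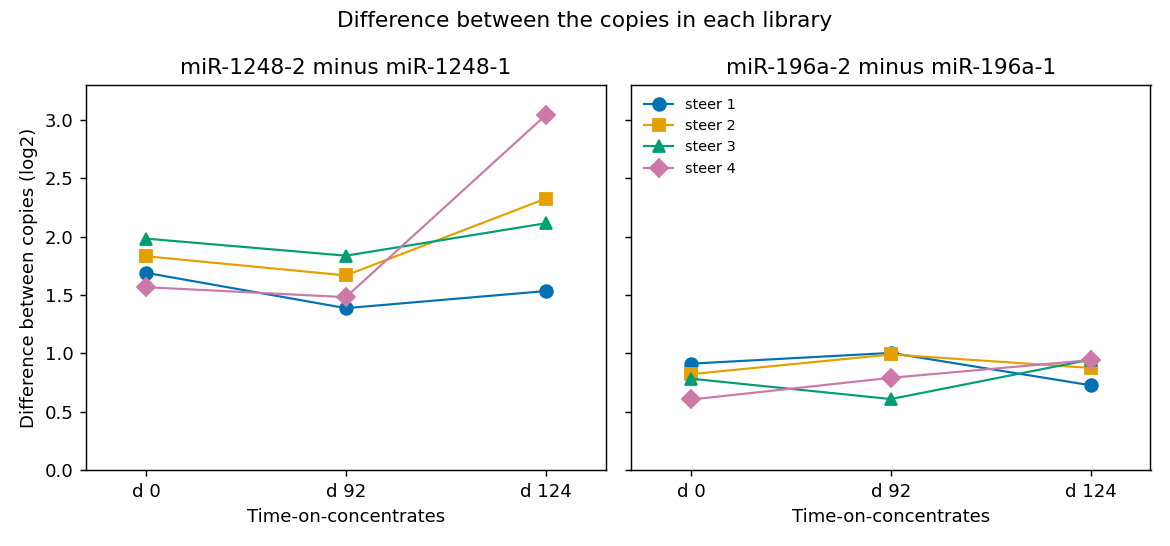
Level (log2) of the second copy minus that of the first copy in each of 12 libraries, for miR-1248 (left) and miR-196a (right), against time-on-concentrates, with 1 symbol per library and lines joining the libraries of a steer. The difference of miR-196a stays between 0.61 and 1.00, and that of miR-1248 lies between 1.39 and 3.04, with the widest value in steer 4 at d 124.

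The agreement of the copies of miR-1248 over libraries was weak. Pearson r was 0.48 (exact permutation of libraries within times, p = 0.111) and Spearman rho was 0.61 (exact permutation p = 0.0431) over 12 libraries, which come from 4 steers and are not independent. This was the 1 relation tested. Without the libraries of steer 1 at d 0 and d 92, the 2 farthest from the median of miR-1248-1, r was 0.47 (exact permutation p = 0.840) and rho 0.63 (exact permutation p = 0.431). The coefficients hardly moved, but they also hold differences between the time means, which permutation within times keeps. Agreement of the copies within times was therefore not shown without these 2 libraries. Deviations from the time means gave r = 0.48 (exact permutation p = 0.190) and rho = 0.33 (exact permutation p = 0.360). With the steer as a replicate block as well, r was 0.44 (exact permutation p = 0.255) and rho 0.46 (exact permutation p = 0.202), so rho did not pass in either. Over the 8 libraries of d 0 and d 92, a subset chosen after the values were seen, r was 0.87 (exact permutation p = 0.0174) and rho 0.74 (exact permutation p = 0.0625), and without the d 124 library of steer 4 r was 0.76 (exact permutation p = 0.0295). At d 124, the time left out of that subset, steer 1 had the highest miR-1248-1 (6.30, log2) and the lowest miR-1248-2 (7.84). Steer 4 had the lowest miR-1248-1 (5.68) and the highest miR-1248-2 (8.72) at that time. Whether r differed between times was not tested.

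Each copy had other small RNA features closer to it than its own partner. Over 12 libraries, 61 of 839 other features had a higher Pearson r with miR-1248-1 than miR-1248-2 did, and 75 of 839 had a higher r with miR-1248-2 than miR-1248-1 did. The features compared exceeded the floor in 9 or more libraries, 517 from Ensembl and 322 from miRBase. All correlations from here on are descriptions over the same 12 libraries, with no test, and features measured in the same libraries share their normalization. The 61 were 31 miRBase and 30 Ensembl features, and the 75 were 19 and 56. At a stricter limit the kinds were less even. The r of miR-1248-1 was over 0.7 with 10 of 322 miRBase features (3.11%) and 2 of 517 Ensembl features (0.387%). For miR-1248-2 the order was the opposite, with 1 of 322 miRBase features (0.311%) and 24 of 517 Ensembl features (4.64%). No feature was in both sets, of 12 and 25 features among 839, and unrelated sets this small would also share few or none.

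**Figure D3:**
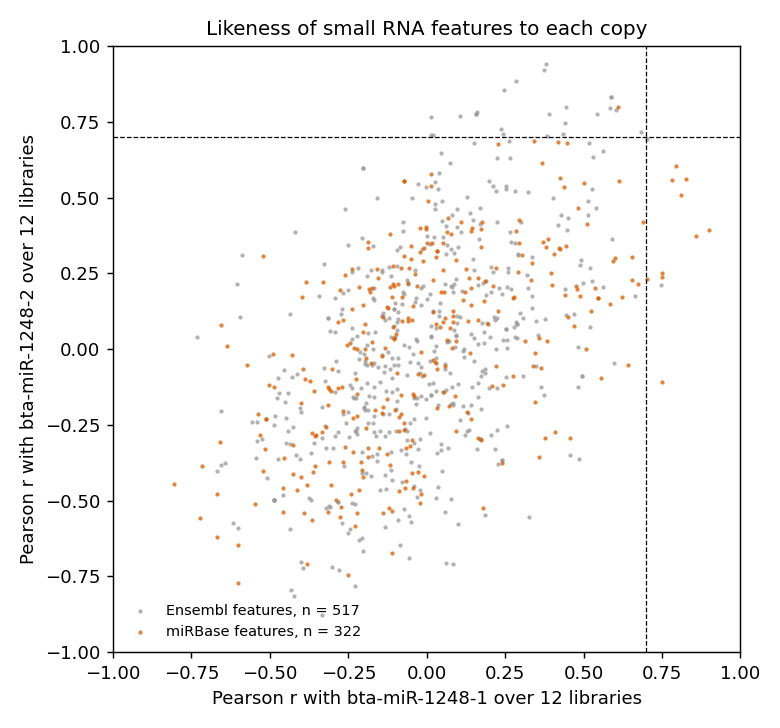
Pearson r of each small RNA feature with bta-miR-1248-1 (x axis) and with bta-miR-1248-2 (y axis) over 12 libraries, with 1 point per feature, 517 from Ensembl in grey and 322 from miRBase in orange, and dashed lines at 0.7. The points above the horizontal line are 24 Ensembl features and 1 from miRBase, and those right of the vertical line are 10 from miRBase and 2 from Ensembl. No point lies beyond both lines, which is common for unrelated sets this small.

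The feature closest to miR-1248-2 was ENSBTAG00000044748, with a Pearson r of 0.94 and a Spearman rho of 0.83. Its level (log2) ranged from 7.80 to 9.02, and it exceeded that of miR-1248-2 in the same library by between 0.30 and 0.97, with a standard deviation of 0.19. At d 124 the excess was 0.39, 0.30, 0.40 and 0.30 in steers 1 to 4, so the feature was high where miR-1248-2 was high, steer 4 included. The widest excess was that of steer 4 at d 0, where miR-1248-2 had its lowest level. The r of ENSBTAG00000044748 with miR-1248-1 was 0.38. From d 0 to d 124 it differed by 0.54 (log2), with a standard error of 0.28 and an adjusted p of 0.644 in limma over all 1002 small RNA features. The 5 Ensembl features closest to miR-1248-2 had an r between 0.83 and 0.94. The only miRBase feature with an r over 0.7 was MI0009808, at 0.80.

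The feature closest to miR-1248-1 was the abundant microRNA MI0005053, with a Pearson r of 0.90 and a Spearman rho of 0.80. Its level (log2) ranged from 13.8 to 14.5 and was highest in steer 1 at d 92, the library with the second highest miR-1248-1. Its r with miR-1248-2 was 0.39. From d 0 to d 124 it differed by 0.16 (log2), with a standard error of 0.25 and an adjusted p of 0.902 in the same limma fit. The 5 closest miRBase features had an r between 0.80 and 0.90 with miR-1248-1. The closest Ensembl feature, ENSBTAG00000042817, had an r of 0.75 and a level within -0.15 to 0.61 (log2) of that of miR-1248-1.

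**Figure D4:**
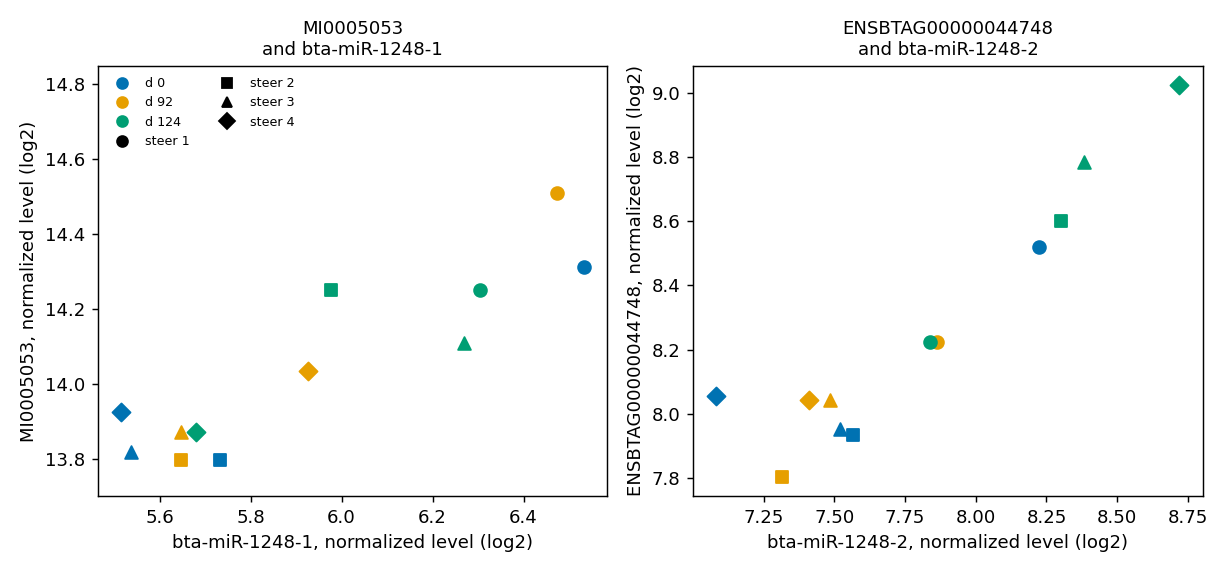
Normalized level (log2) of the feature closest to each copy against that of the copy, MI0005053 with bta-miR-1248-1 (left) and ENSBTAG00000044748 with bta-miR-1248-2 (right), with 1 symbol per library, its colour for the time and its shape for the steer. The d 124 libraries of steers 2, 3 and 4 are at the upper end on the right, and those of steer 1 at d 0 and d 92 on the left.

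With the mean of both copies as the pattern, the 5 closest Ensembl features had an r between 0.81 and 0.84, and the first place was held by a pair with the same value in every library. The 5 closest miRBase features had an r between 0.74 and 0.83, led by MI0009808. Features with all 12 values in common with another feature numbered 26 among the 841 compared, 24 from Ensembl and 2 from miRBase. The copies of miR-1248 were not among them and differed in each of 12 libraries. The count of shared values took ties after rounding only and may miss pairs that are nearly equal. The pairs MI0011474 and MI0011489, MI0009732 and MI0009733, and MI0004731 and MI0009784 each had the same printed r with both copies of miR-1248.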

How the data were processed

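The authors enriched small RNA of 12 biopsies, sequenced it on an Ion S5 and used StrandNGS, in a version the sources used here do not give, for alignment to bosTau4 and for quantile normalization. The values the authors deposited are on a log2 scale, with the median of each of 2712 features over the libraries subtracted. The median was recovered for 1304 of 1314 features that vary, by matching values to levels shared between features (tolerance 3e-06), with 7 of 11 distinct values matched for miR-1248-1 and 9 of 12 for miR-1248-2. Levels, shares and differences between the copies use it, and changes of a feature or of that difference over time do not depend on it. The floor is a level of 0. The base was taken as 2. Then 453 of 729 distinct linear levels between 40 and 500 (62.1%) lay within 0.02 of a whole number after multiplication by 12, as means of read counts over 12 libraries do, against 4.04% with base e. The files hold no read totals, so the depth behind each library's values is unknown here and counting intervals are left out.

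miRBase features that exceeded the floor in 4 or more libraries (368) entered a limma fit (version 3.58.1, R 4.3.3, trend, robust, time as the only term, all 12 libraries), with Benjamini-Hochberg adjustment over all 368. The design foresaw log2 values. The deposited values have a median of 0 for each feature, so the trend of the main fit carried little information on abundance. When the trend followed the recovered level instead, 17, 25 and 7 of 368 features passed the unadjusted limits, against 19, 33 and 5. These counts are for d 92 against d 0, d 124 against d 0 and d 124 against d 92. The unadjusted p of miR-1248-2 in that limma fit was 0.0379 at d 124 against d 0 and 0.0222 at d 124 against d 92. Single features and copy differences were compared by two-sided exact permutation tests. Equal replicate numbers mark 1 steer and pair the libraries. Deviations from the time means had a median correlation of 0.116 over 12 same-steer pairs and -0.03 over 36 other pairs. As the study's analysis of variance had no steer term, the fit with it is an alternative. Scripts ran in Python 3.11.15 with scipy 1.17.1, and the recovery and the limma fit were also run on simulated data. The simulated limma data had no steer effect. Their planted changes were larger than the log2 fold changes of the copies, so they do not bear on changes of that size.

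The copies, lists and tests were chosen with earlier results of these data known, from the study's tables too. The rule for named features takes both copies, the 5 features of each kind closest to the mean of the copies and the Ensembl features closest to each copy. It also takes markers, genes next to the copies and other copied microRNAs. The miRBase features closest to a single copy, MI0005053 among them, were added outside this rule. The sources used here pair no Ensembl feature with a gene name, so only the closest features are given by identifier, and EIF4A2, MYO5A and snoRNA features are not analysed here. The RefSeq table (ARS-UCD2.0) served for gene neighbours only.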

Additional observations from a re-analysis of the deposited data

How the results depend on the processing

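The number of miRBase features at an adjusted p under 0.05 in limma was 0 in each comparison under every alternative where features were counted. They were not counted in the alternative with 10 added to the linear values before the log2. Neither copy passed this limit under any alternative run, that one included. With the replicate block, the adjusted p of miR-1248-2 was 0.430 at d 124 against d 0 and 0.968 at d 124 against d 92, and the block changed no call. On all small RNA features 45, 81 and 38 of 1002 passed the unadjusted limits at d 92 against d 0, d 124 against d 0 and d 124 against d 92. Otherwise 19, 33 and 5 of 368 did, so the counts compare only as shares of unlike totals, and the cause of any difference was not tested. With only its 2 times, 8 passed at d 124 against d 92. Leaving out 1 library gave between 15 and 24, between 20 and 34 (20 without d 124 replicate 1) and between 4 and 14 (14 without d 92 replicate 3), in the same order. The log2 fold change of miR-1248-1 at d 92 then lay between -0.0897 and 0.33 (-0.004 without d 0 replicate 3, -0.01 without d 0 replicate 4) and that of miR-1248-2 between -0.25 and 0.13. At d 124 against d 0 it lay between 0.12 and 0.46 for miR-1248-1 and between 0.54 and 0.92 for miR-1248-2, and against d 92 between 0.04 and 0.32 and between 0.66 and 0.95. The change of the difference between the copies lay between -0.26 and -0.10, between 0.22 and 0.73 and between 0.40 and 0.90. With the replicate block, the exact sign-change p of that difference was 0.125, 0.375 and 0.125, and 0.125 is the smallest that 4 pairs allow. The correlation of the copies lay between 0.38 and 0.76 without 1 library (0.50 without d 124 replicate 1, exact permutation p = 0.0440), and was 0.61 by rank, 0.87 at d 0 and d 92, and 0.44 as deviations from time and steer means, a replicate block. Of 232 alternatives over 16 results, 4 turned sign, and 216 kept their direction and their side of the adjusted or exact threshold, or their count within 1.5 times. The unadjusted call of miR-1248-2 was lost under the settings given with its values. The trend on the recovered level and the d 0 and d 92 subset were chosen after seeing the data.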

Other observations

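Some small RNA features ran against the second copy. Of 517 Ensembl features, 10 had a Pearson r under -0.7 with miR-1248-2 and 1 with miR-1248-1, and of 322 miRBase features 3 did so with each copy. The lowest values were -0.88 for miR-1248-2, with an Ensembl feature, and -0.81 for miR-1248-1, with a miRBase feature. In the 9 groups formed by the 3 times with the level of each copy or their difference, no library lay far enough from the other 3 to pass Dixon's test at 95%. The widest gap, 0.785 of the range, was that of steer 1 in miR-1248-1 at d 0.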
